A study of Bos grunniens with 12 samples.

Results

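The fibroblast growth factor (FGF) receptors and their ligands FGF2 and FGF9 were examined in the testes of domesticated yaks (Bos grunniens) of different ages. FGFs are secreted proteins that bind receptor tyrosine kinases on the cell surface together with heparan sulfate, and the activated receptor signals through the adaptor FRS2 to the RAS-MAPK cascade, which Sprouty and SPRED proteins restrain. In the mammalian testis FGF9 is known for its part in male sex determination, and FGF2 for supporting spermatogonial stem cells in culture. Genes were taken by symbol from the deposited table of expression values: FGFR1, FGFR2, FGFR3, FGFR4, FGFRL1, FGF2 and FGF9. Of these 7 symbols, 6 were present, on 8 of the 20953 identifiers. FGFR1 and FGFR3 each stood on 2 identifiers, which were kept apart, and no identifier carried the symbol FGF9.

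The Y group held 3 yaks of 1.5 years (before sexual maturity) and the M group 3 yaks of 5 years (after sexual maturity), all healthy animals from the same location. The testes of the younger yaks were taken by castration and those of the older yaks after the animals were killed, so age and the way of collection cannot be told apart. From each testis an m6A immunoprecipitated library and an input library were sequenced, 12 libraries in all; the input library holds the mRNA fragments before immunoprecipitation and served as RNA-seq.

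Libraries were placed by the age in their titles, and the stage written beside each title is the opposite one. Every direction below rests on the ages in the titles, and every sign would be reversed if the written stages were the right ones. Which of the labels is right was not tested. Elongating spermatid genes, of which 4 of 9 symbols were in the table, summed to 1154 to 1195 FPKM in the Y group and to 263 to 849 FPKM in the M group. Haploid germ cell transcripts were therefore abundant in the libraries titled as 1.5 years, and their written stage is the one after sexual maturity. Round spermatid genes (6 of 7 symbols) summed to 222 to 272 FPKM in the Y group and 61.4 to 220 FPKM in the M group. Markers of Sertoli cells were higher in every M group library. FPKM is a fragment count scaled to transcript length and to the mapped fragments of the library, and it allows levels of different genes to be compared. Replicate 1 of the M group stood apart, with a correlation to the Y group libraries of 0.817 to 0.837 across tested genes, against 0.942 to 0.947 for replicate 2. The fragments behind each value are not in the table; the size of the smallest steps between low values put the depth of the libraries within 0.994 to 1.10 of that of replicate 1 of the Y group.

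Symbol and annotation did not match on every identifier. Of the 8 identifiers, 2 carried the MAPK signaling pathway among their annotated pathways, FGFR1 (ENSBGRG00000015839) with 15 pathways and FGFR4 (ENSBGRG00000016457) with 8. FGFRL1 (ENSBGRG00000019493) carried GO terms of fibroblast growth factor receptor activity. The other FGFR1 identifier, ENSBGRG00000016869, had no pathway, and its GO terms were mitochondrial inner membrane, integral component of membrane and ribosome binding, which do not describe a receptor tyrosine kinase. FGFR3 (ENSBGRG00000017804) had RNA transport as its only pathway, and FGFR2 (ENSBGRG00000023230) had Herpes simplex virus 1 infection, the sole pathway of 1553 identifiers of the table. The second FGFR3 identifier (ENSBGRG00000017575) and FGF2 (ENSBGRG00000010536) had neither a GO term nor a pathway. In the RefSeq annotation of another yak assembly (Bosgru_T2T1.0), the protein-coding neighbours of FGFR1 are LETM2 and TACC1, and those of FGFR3 are TACC3 and LETM1. The expression table has 0 identifiers named LETM2 and 0 named TACC3, and 3871 of its symbols stand on more than 1 identifier. Which gene the weakly annotated identifiers represent was not settled, so each is given below with its identifier.

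FGFR1 (ENSBGRG00000015839), the receptor best known from mesenchymal tissue, was the identifier whose levels separated the ages most clearly. Its level was 0.889, 0.975 and 0.611 FPKM in the Y group and 3.44, 2.39 and 3.14 FPKM in the M group, replicates 1 to 3 in each. Every M group library lay above every Y group library, and the lowest M value was 2.45 times the highest Y value. The mean was 0.825 ± 0.190 FPKM (SD, n = 3) in the Y group and 2.99 ± 0.539 FPKM (SD, n = 3) in the M group, a 3.62-fold ratio of the means. Separation to the higher side was common in this comparison, as 19.8% of all tested genes showed it. Because these are bulk tissue libraries, fewer cells of a type and less RNA per cell cannot be told apart.

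The ages were compared with limma on log2(FPKM + 0.1) over 12437 genes whose mean reached 0.5 FPKM, and differences are M minus Y on this scale. FGFR1 (ENSBGRG00000015839) had a log2 fold change of 1.75 (standard error 0.24, 95% interval 1.17 to 2.32). Its unadjusted p-value was 0.00016, rank 12 of 12437, and its adjusted p-value over all tested genes was 0.129, so it did not pass the threshold of 0.05. Of all tested genes, 4 passed it, or 0.0322%, and of the 6 FGF receptor identifiers tested 0 did, with 1 past an unadjusted p-value of 0.05 (25.1% of all genes). The call turned on 1 library. Without replicate 2 of the M group the adjusted p-value of FGFR1 was 0.0169, in a fit where 19.3% of all genes were called, and without replicate 3 of the Y group it was 0.374. In an exact two-sided permutation test of this gene alone p was 0.1, the smallest value that 3 against 3 animals allow.

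**Figure D1:**
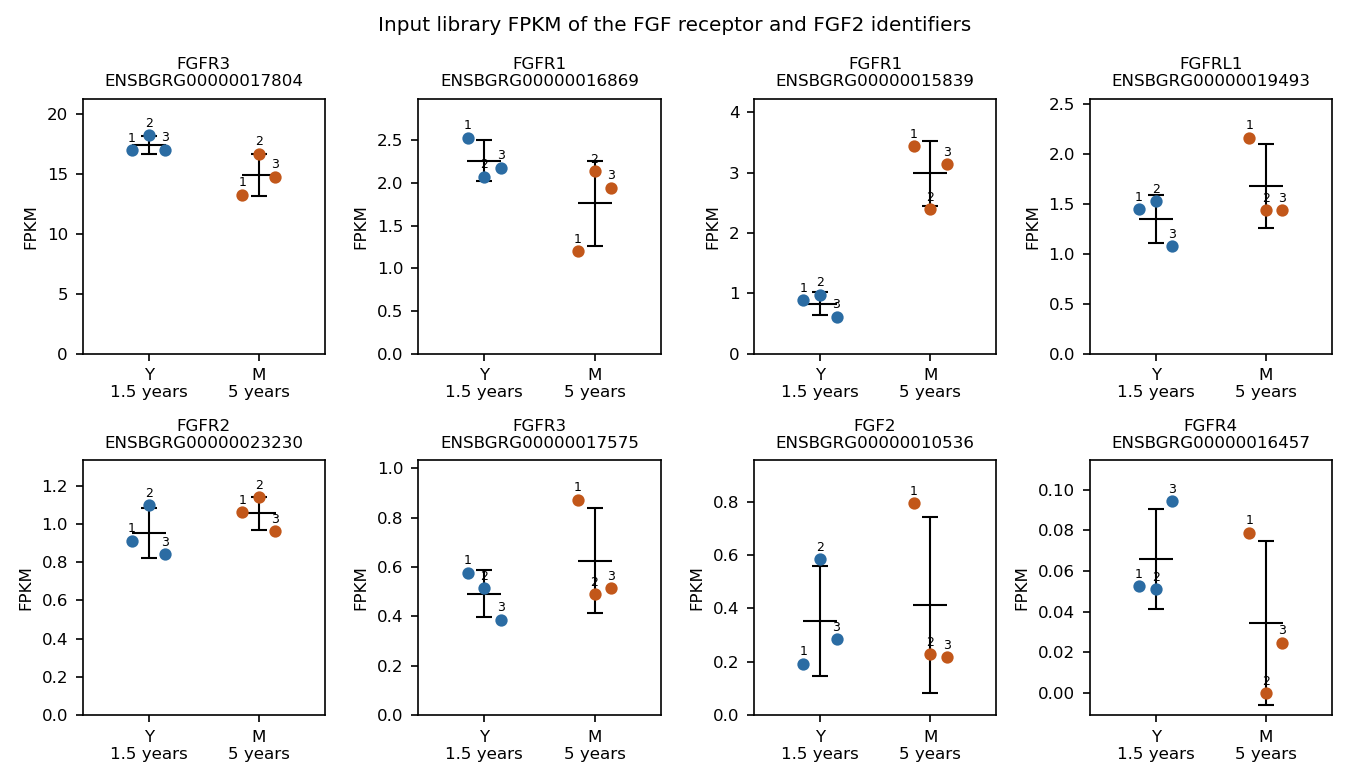
FPKM in the 6 input libraries for each of the 8 identifiers, with 1 point per library (numbers are replicates), a horizontal bar for the mean and error bars for the SD (n = 3 per group); each panel has its own linear axis. FGFR1 (ENSBGRG00000015839) is the panel with the widest gap between the groups, from 0.975 FPKM at most in the Y group to 2.39 FPKM at least in the M group.

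The second identifier named FGFR1 (ENSBGRG00000016869) had a lower mean in the M group. Its level was 2.53, 2.07 and 2.18 FPKM in the Y group and 1.20, 2.14 and 1.94 FPKM in the M group. The groups overlapped, since replicate 2 of the M group lay above replicate 2 of the Y group. Its log2 fold change was -0.38 (standard error 0.24, limma adjusted p = 0.346), with a 95% interval from -0.95 to 0.20, and it was -0.14 without replicate 1 of the M group (limma adjusted p = 0.698). Within a library the ratio of the first to the second identifier was 0.351, 0.470 and 0.280 in the Y group and 2.86, 1.12 and 1.61 in the M group. The second identifier was the higher of the pair in 3 of 3 Y group libraries and the lower in 3 of 3 M group libraries.

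Both identifiers named FGFR1 carried a differential m6A peak, a region whose immunoprecipitated signal relative to input differed between the ages by the authors' thresholds. N6-methyladenosine (m6A) is the most common internal modification of mRNA. The peak on ENSBGRG00000015839 lay at 28:20631789-20633005 (1217 bp) on LU_Bosgru_v3.0 in exon 9 of 16 of a plus-strand gene that spans 20590300 to 20635092, and began 41489 bp from the transcription start and ended 2087 bp before the gene end. The peak on ENSBGRG00000016869 lay at 28:20655456-20656067 (612 bp) in the 5′UTR of a minus-strand gene that spans 20639021 to 20657858, 1791 bp from its transcription start. The genes lie tail to tail on opposite strands with 3928 bp between them, and the peaks are 22450 bp apart. These are separate annotated genes, and their peaks cannot be counted as a pair on one transcript. No size, sign or significance of the m6A difference is listed with the peaks, so no direction of methylation was read from them.

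**Figure D2:**
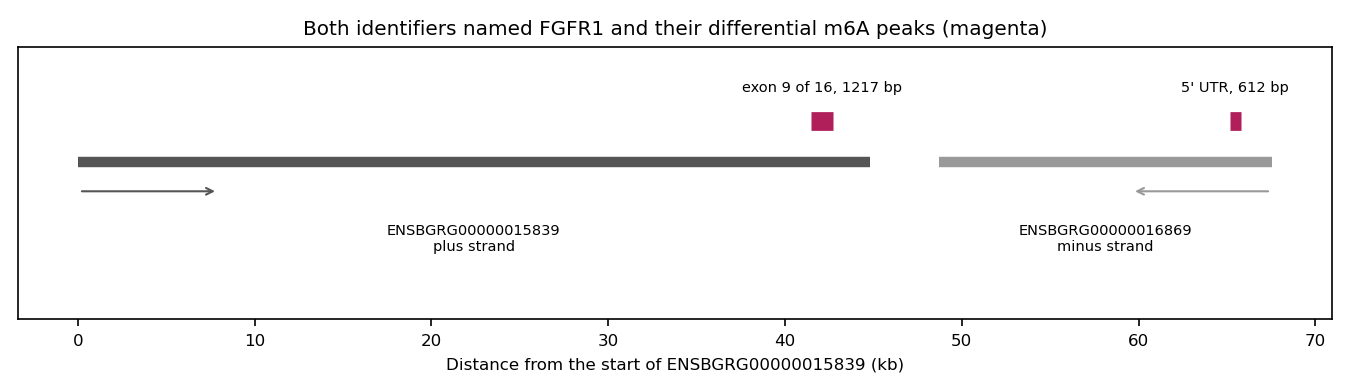
Map to scale of both genes named FGFR1 on chromosome 28, with the distance in kb from the start of ENSBGRG00000015839 on the horizontal axis, arrows for the direction of transcription and bars for the differential m6A peaks. The exon 9 peak lies toward the 3′ end of the plus-strand gene and the 5′UTR peak at the start of the minus-strand gene, on either side of a gap of 3928 bp.

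No other FGF receptor or FGF2 identifier had a differential m6A peak. The share with a peak was 2 of 8 identifiers, against 5.63% of all 20953, and 2 of the 6 tested identifiers, against 9.29% of the 12437 tested genes. Identifiers are counted here by symbol. Of the 2, ENSBGRG00000016869 has GO terms that do not describe a receptor tyrosine kinase. Both peaks were wider than the median of 398 bp over the 1438 differential peaks. Peaks in exons made up 75.9% of the table and those in the 5′UTR 6.26%.

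FGFR2 (ENSBGRG00000023230), whose epithelial form is the receptor of FGF7 and FGF10, was nearly level between the ages. Its level was 0.912, 1.10 and 0.843 FPKM in the Y group and 1.06, 1.14 and 0.963 FPKM in the M group, and the groups overlapped. The log2 fold change was 0.14 (95% interval -0.38 to 0.66, limma adjusted p = 0.699). Log2 fold changes below -0.38 or above 0.66 lie outside that interval.

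FGFR3 (ENSBGRG00000017804) had the highest level under an FGF receptor symbol, but with a pathway annotation that is not that of a receptor kinase. Its level was 17.0, 18.3 and 17.0 FPKM in the Y group and 13.3, 16.7 and 14.8 FPKM in the M group. All M group libraries were below all Y group libraries, as for 13.9% of the tested genes, and the nearest values were 16.7 and 17.0 FPKM. The log2 fold change was -0.23 (95% interval -0.56 to 0.11, limma adjusted p = 0.334). The other FGFR3 identifier (ENSBGRG00000017575) was at 0.387 to 0.576 FPKM in the Y group and 0.491 to 0.873 FPKM in the M group. Its groups overlapped and its log2 fold change was 0.27 (95% interval -0.54 to 1.08, limma adjusted p = 0.628), and 0.04 without replicate 1 of the M group.

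FGFR4 (ENSBGRG00000016457), a receptor known mainly from liver, was near the limit of detection. It stood at 0.0526, 0.0511 and 0.0944 FPKM in the Y group, and at 0.0789, 0 and 0.0247 FPKM in the M group. After scaling for the step size of each library these values were within 2.55% of 2, 2, 4, 3, 0 and 1 times the smallest value above 0, so they may rest on single fragments. No difference between the ages was detectable at this depth, and FGFR4 was below the level required for testing.

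FGFRL1 (ENSBGRG00000019493), a receptor that binds FGFs but lacks the kinase domain, was at 1.45, 1.53 and 1.08 FPKM in the Y group and 2.17, 1.44 and 1.44 FPKM in the M group. Only replicate 1 of the M group stood above the Y group range. The log2 fold change was 0.28 (95% interval -0.29 to 0.86, limma adjusted p = 0.468), and it was 0.10 without that library.

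FGF2 (ENSBGRG00000010536), the only ligand of the pair in the table, was at 0.192, 0.584 and 0.283 FPKM in the Y group and 0.794, 0.228 and 0.218 FPKM in the M group. In each group 1 library stood well above the other two, and the groups overlapped. With a mean of 0.383 FPKM over the 6 libraries it was below the level required for testing; with that filter removed its log2 fold change was 0.09 (limma adjusted p = 0.931).

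**Figure D3:**
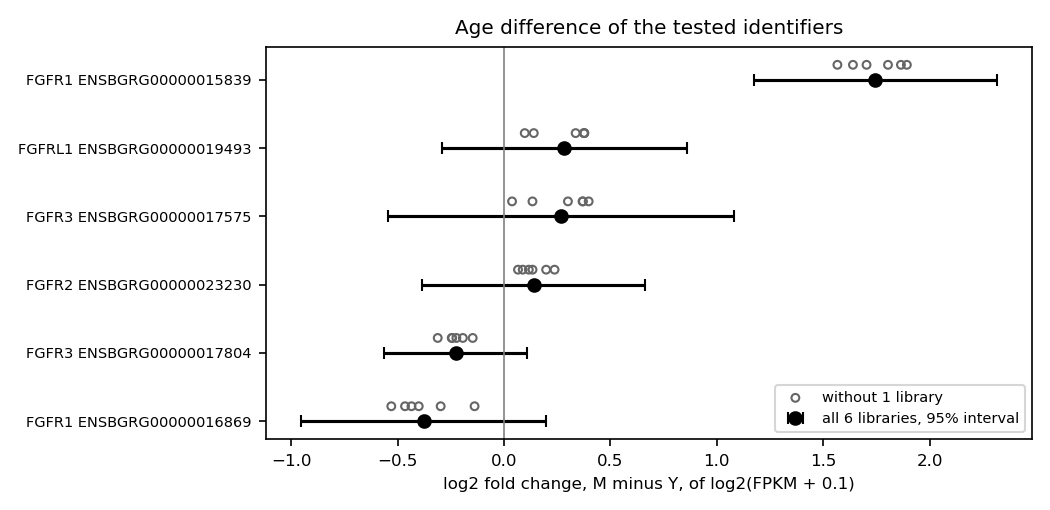
Log2 fold change (M minus Y) of log2(FPKM + 0.1) for the 6 tested identifiers, with filled points for all 6 libraries, bars for the 95% interval from limma and open circles for the fits that each left out 1 library. The interval of FGFR1 (ENSBGRG00000015839), 1.17 to 2.32, lies above 0, and those of the other 5 identifiers include 0.

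Ordered by the mean over all libraries, the levels ran from FGFR3 (ENSBGRG00000017804) at 16.2 FPKM through FGFR1 (ENSBGRG00000016869) at 2.01, FGFR1 (ENSBGRG00000015839) at 1.91, FGFRL1 at 1.52, FGFR2 at 1.00, FGFR3 (ENSBGRG00000017575) at 0.559 and FGF2 at 0.383 to FGFR4 at 0.0503 FPKM. The first and the last step were clear, with ranges that did not overlap. FGFRL1 exceeded FGFR2, and FGFR2 the lower FGFR3 identifier, in 6 of 6 libraries, although their ranges over libraries overlapped. FGFR1 (ENSBGRG00000015839) changed its place with age, being below FGFRL1 in 3 of 3 Y group libraries and above it in 3 of 3 M group libraries. The lower FGFR3 identifier and FGF2 did not differ beyond their spread (higher in 5 of 6 libraries).

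The sums of several marker lists of other cells had a higher mean in the M group, and are given beside FGFR1 (ENSBGRG00000015839). Peritubular and stromal markers, 7 of 8 symbols with no identifier at 0 throughout, summed to 21.5 to 25.2 FPKM in the Y group and 31.5 to 50.1 FPKM in the M group. Sertoli cell markers, 5 of 8 symbols with SOX9 and WT1 among them and 1 of the 2 WT1 identifiers at 0 throughout, summed to 71.9 to 83.9 FPKM in the Y group and 104 to 250.2 FPKM in the M group. Endothelial markers (6 of 6 symbols) summed to 11.8 to 17.6 and 17.5 to 28.2 FPKM, so the groups overlapped. Spermatogonia markers (7 of 8) summed to 64.7 to 72.0 and 77.0 to 144 FPKM. Every M value lay above every Y value for 5 of 5 tested Sertoli cell identifiers and 4 of 7 peritubular and stromal ones. The same held for 2 of 6 endothelial and 2 of 8 spermatogonia ones, against 19.8% of all tested genes. Both endothelial ones were CLDN5, and the others tested had log2 fold changes of -0.09 to 0.29. INHA made up 62.1 of the mean Sertoli cell sum of 79.8 FPKM in the Y group and 131 of 162 in the M group. The sum over the M group was highest in replicate 1 and lowest in replicate 2 for each of these 4 lists, the order that FGFR1 also had. The sum of Leydig cell markers (2 of 7 symbols) went the other way, at 11.5 to 19.5 FPKM in the Y group and 7.51 to 9.04 FPKM in the M group. STAR made up most of this sum in every library. Of the 3 tested identifiers only STAR lay below the Y group without overlap (log2 fold change -0.92). Both CYP11A1 identifiers overlapped between the groups, with log2 fold changes of 0.12 (ENSBGRG00000004363) and -1.4 (ENSBGRG00000004417). Macrophage marker sums (6 of 7) overlapped at 21.7 to 27.3 and 24.4 to 38.5 FPKM, as the endothelial sums did. Their genes went in opposite directions. Without overlap, 2 of the 6 tested lay above the Y group (19.8% of all tested genes) and 2 below it (13.9%). C1QA and C1QB had log2 fold changes of 1.07 and 1.30, and CD163 and AIF1 of -1.16 and -1.27. The macrophage sum was also highest in replicate 1 of the M group and lowest in replicate 2.

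The level of FGFR1 (ENSBGRG00000015839) was then set against the peritubular and stromal, Sertoli cell, endothelial and spermatogonia sums, a ratio chosen after seeing the data. As a percentage of the peritubular and stromal sum it was 4.13, 3.86 and 2.56 in the Y group and 6.85, 7.58 and 7.31 in the M group, a log2 difference of 1.07. As a percentage of the Sertoli cell sum it was 1.06, 1.17 and 0.849 in the Y group and 1.37, 2.29 and 2.41 in the M group, a log2 difference of 0.95. Against the endothelial and spermatogonia sums the log2 difference was 1.27 and 1.34. The groups did not overlap on any of the 4 ratios. The 4 sums were themselves higher in the M group on average, so a difference smaller than that of FGFR1 was fixed in advance. Nothing was added before the log of the ratios, unlike the 1.75 of FGFR1 on log2(FPKM + 0.1). The exact two-sided permutation test gave p = 0.1 for each, the smallest possible value. The part of these cells in the FPKM difference was not tested.

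**Figure D4:**
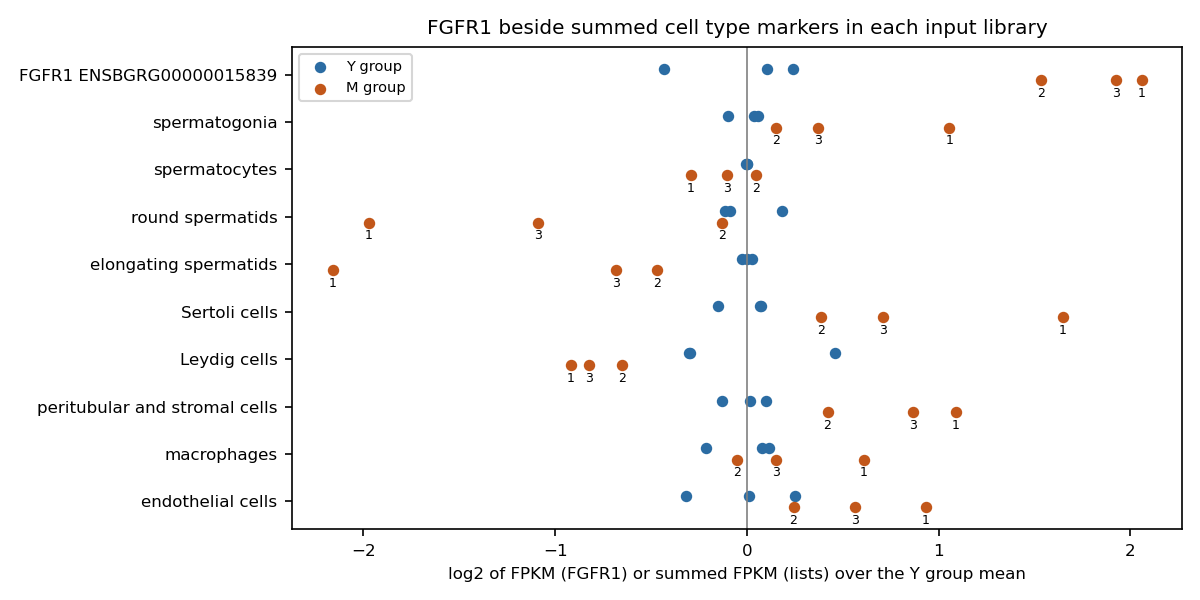
FPKM of FGFR1 (ENSBGRG00000015839) and summed FPKM of the marker lists in each input library, as the log2 ratio to the Y group mean on the horizontal axis, with blue points for the Y group and orange points numbered by replicate for the M group. FGFR1 lies further to the right in all 3 M group libraries than the peritubular and stromal sum or the Sertoli cell sum, while the elongating spermatid sum lies to the left in all 3.

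The genes whose pattern over the 6 input libraries was most like that of FGFR1 (ENSBGRG00000015839) were LTBP2, METTL15 and ADAR. Their Pearson correlations of log2(FPKM + 0.1) were 0.9953, 0.9953 and 0.994. LTBP2 is an extracellular matrix protein of the latent TGF-beta binding family, and ADAR edits adenosine to inosine in double-stranded RNA. The points share the age groups, and 279 tested genes correlated with FGFR1 above 0.95. The nearest to the other FGFR1 identifier (ENSBGRG00000016869) were AGBL5, TSNAXIP1 and SCCPDH (0.9994, 0.998 and 0.997). SOAT1, RNF6 and CFAP97D1 (0.994, 0.994 and 0.993) were nearest to FGFR3 (ENSBGRG00000017804), and CAMK2D, ARF1 and CNP (0.989, 0.988 and 0.988) to the lower FGFR3 identifier. For FGFRL1 the nearest were MMRN1, ALDH4A1 and METTL8 (0.992, 0.991 and 0.987). FGFR2 had the loosest matches, with MRPL54, MIPOL1 and POP5 at 0.976, 0.972 and 0.968 and 5 genes above 0.95.

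The other genes of the FGF pathway were taken from lists of 78 symbols, of which 64 were in the table on 93 identifiers, 55 of them tested. None of the 55 passed the adjusted threshold in limma, while at an unadjusted p-value under 0.05 the M group was above the Y group for 10 (14.2% of all genes) and below it for 7 (10.9% of all genes). The median log2 fold change was 0.21, against 0.04 over all tested genes. Without overlap, 14 of the 55 lay above the Y group (19.8% of all genes) and 10 below it (13.9% of all genes).

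Among the other secreted ligands, 12 of 16 symbols were present on 21 identifiers, 5 of which were tested. FGF4 (ENSBGRG00000024404), a ligand of the early embryo, was at 2.74 to 4.50 FPKM in the Y group and 4.83 to 7.50 FPKM in the M group (log2 fold change 0.73, limma adjusted p = 0.160), and has no pathway in the table. FGF22 (ENSBGRG00000005736), of the FGF7 subfamily, was at 1.58 to 3.09 and 1.03 to 1.51 FPKM (log2 fold change -0.72, limma adjusted p = 0.179). FGF18 (ENSBGRG00000016969) was at 22.03 to 24.4 and 25.1 to 31.9 FPKM (log2 fold change 0.28, limma adjusted p = 0.268), and has no pathway either. Other identifiers of these symbols stood at other levels. The FGF4 ones with 9 pathways had means of 0 and 0.0636 FPKM, and FGF18 (ENSBGRG00000017519), with 2 pathways, 0.968 FPKM. FGF22 (ENSBGRG00000005770), without a pathway, had a mean of 30.4 FPKM (log2 fold change -0.25, limma adjusted p = 0.370). Which gene each represents was not settled. The 16 ligand identifiers that were not tested had means of 0 to 0.143 FPKM. The intracellular FGF homologous factors (FGF11 to FGF14, 3 of 4 symbols) and the klotho co-receptors KL and KLB had 0 identifiers at a level that could be tested.

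Heparan sulfate proteins and the enzymes that build or trim their chains had 15 tested identifiers, with 5 above and 2 below the Y group at an unadjusted p-value under 0.05, against 14.2% and 10.9% of all tested genes. SULF2, a sulfatase that removes sulfate groups from heparan sulfate outside the cell, was at 1.00, 0.841 and 0.978 FPKM in the Y group and 2.19, 2.30 and 2.31 FPKM in the M group. The M group values of SULF2 lay close together and far from the Y group (log2 fold change 1.19, standard error 0.18, limma adjusted p = 0.129). The syndecan SDC3 was at 0.444 to 0.676 and 0.811 to 1.91 FPKM (log2 fold change 1.16, limma adjusted p = 0.154). EXT1, which polymerises the chain, and NDST1, which modifies it, had log2 fold changes of 0.77 and 0.63 (limma adjusted p = 0.171 for both). In the core proteins the signs were mixed, as SDC2 was at 10.8 to 14.1 FPKM in the Y group and 7.00 to 9.20 FPKM in the M group (log2 fold change -0.68, limma adjusted p = 0.154). GPC2 was at 4.45 to 5.82 and 2.70 to 4.26 FPKM (log2 fold change -0.62, limma adjusted p = 0.165).

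Receptor adaptors had log2 fold changes above 0 in 11 of 12 tested identifiers, against 6651 of all 12437, with a median of 0.16. Several of these lay next to 0, as CBL was at 0.02, PLCG1 at 0.06, SOS2 at 0.08 and CRKL at 0.09. At an unadjusted p-value under 0.05, 2 of the 12 were above the Y group (14.2% of all genes). FRS2, the docking protein of the FGF receptors, was at 1.98, 2.14 and 2.06 FPKM in the Y group and 4.19, 2.50 and 3.16 FPKM in the M group (log2 fold change 0.62, limma adjusted p = 0.164). CRK and the RAS exchange factor SOS1 had log2 fold changes of 0.61 and 0.43 (limma adjusted p = 0.176 and 0.204). The groups did not overlap for these 3, which were named for their small p-values, and 19.8% of all tested genes separated to that side. In the RAS-MAPK core the median was 0.02 over 11 tested identifiers, and BRAF (ENSBGRG00000000301) and MAPK3 had log2 fold changes of -0.57 and -0.46 (limma adjusted p = 0.191 and 0.177).

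SPRY2, the Sprouty inhibitor that FGF signalling itself induces, was at 1.50, 1.59 and 0.841 FPKM in the Y group and 4.07, 2.36 and 3.41 FPKM in the M group. The groups did not overlap (log2 fold change 1.27, standard error 0.30, limma adjusted p = 0.154), and 19.8% of all tested genes separated to that side. The M group replicates of SPRY2 stood in the same order as those of FGFR1 (ENSBGRG00000015839). That order was not particular to SPRY2, as FRS2, CRK, SOS1, EXT1 and NDST1 also had it, while SULF2 did not. Its share over all genes was not counted. SPRED2 had a log2 fold change of 0.58 (limma adjusted p = 0.201). SPRED3 was at 2.92 to 4.94 FPKM in the Y group and 0.791 to 2.93 FPKM in the M group, with M group replicate 2 at the lower edge of the Y range (log2 fold change -1.21, limma adjusted p = 0.168). Of the ETS transcription factors that respond to FGF, ETV1 was at 2.96 to 3.22 and 1.67 to 2.44 FPKM (log2 fold change -0.58, limma adjusted p = 0.155) and ETV4 (ENSBGRG00000005239) at 0.880 to 1.23 and 0.511 to 0.797 FPKM (log2 fold change -0.54, limma adjusted p = 0.256). EGR1, an immediate early gene, overlapped between the groups (log2 fold change 0.57, limma adjusted p = 0.424). Log2 fold changes were above 0 in 6 of 7 tested feedback inhibitors and 1 of 5 responsive transcription factors, against 6651 of all 12437 tested genes. Some of these lay next to 0, as SPRY4 was at 0.03, ETV5 at -0.02 and the other ETV4 identifier (ENSBGRG00000005463, mean 6.28 FPKM) at -0.03. The difference between these lists was not tested.

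**Figure D5:**
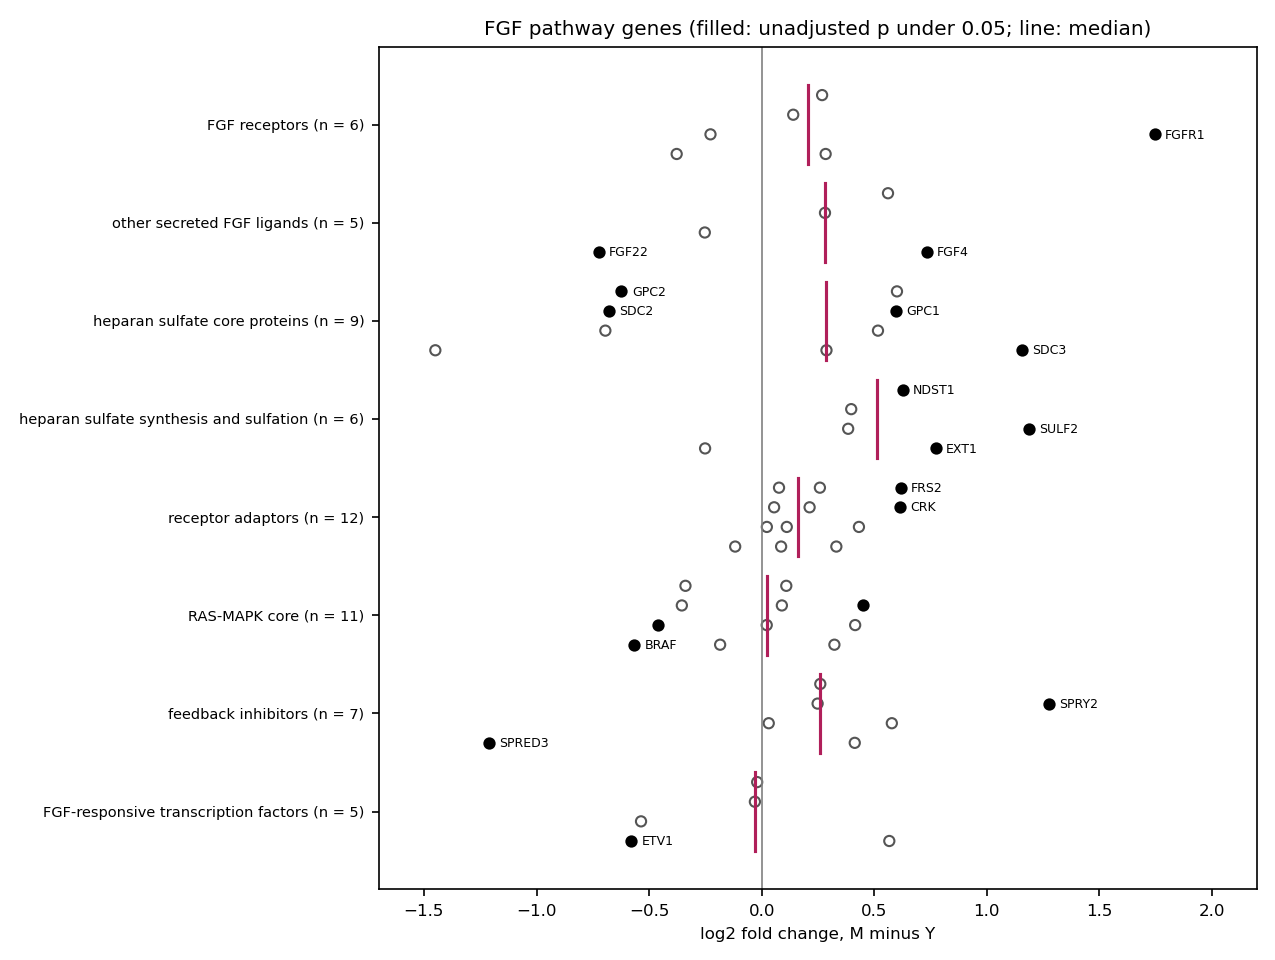
Log2 fold change (M minus Y) of the tested identifiers of each FGF pathway list, with 1 point per identifier, filled where the unadjusted p-value from limma was under 0.05 and named where the change was also beyond 0.5 in either direction, and a vertical line for the median of the list. FGFR1 (1.75), SPRY2 (1.27) and SULF2 (1.19) lie furthest to the right, and no point has an adjusted p-value under 0.05.

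Outside the receptors, 3 pathway identifiers carried a differential m6A peak, or 3 of 93 against 5.63% of all. SPRY1, a single-exon gene on the minus strand of chromosome 16, had a peak of 480 bp at 37732548 to 37733027. Its level was 1.18 to 1.72 FPKM in the Y group and 1.38 to 2.61 FPKM in the M group, and the groups overlapped (log2 fold change 0.41, limma adjusted p = 0.358). HRAS (ENSBGRG00000016884) had a peak in exon 1 of 3 on chromosome 29, from 414960 to 415253. HRAS was below the level required for testing, at 0.315 to 0.704 FPKM in the Y group and 0.238 to 0.455 FPKM in the M group.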

How the data were processed

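The authors deposited gene FPKM for each input library. Their reads were cleaned with Trimmomatic, screened against rRNA with SortMeRNA and mapped to LU_Bosgru_v3.0 by HISAT2 (2.0.4 in the submitters' processing notes); the program behind FPKM is not given in the sources used here. FPKM of a library summed to 116187 to 139921. Differential peaks were called with MeTDiff (p of at most 0.05, fold change of at least 1.5) and annotated with ChIPseeker by the authors; single-group peak lists and values of the immunoprecipitated libraries were not used here.

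The comparison of ages used R 4.3.3 and limma 3.58.1 (lmFit, eBayes with trend) on log2(FPKM + 0.1), two-sided, with Benjamini-Hochberg adjustment over all 12437 genes with a mean of at least 0.5 FPKM. Nothing in the labels pairs the animals, and p-values measure the spread between 3 animals per age. The fit was tested on simulated data of 12437 genes: a log2 change of 2 was called in 79.5% of 200 genes and a change of 1 in 41% of 200. The simulated errors were independent between genes, and no simulated library stood apart as replicate 1 of the M group did. These rates therefore check the code and do not give the power of the comparison made here. Figures were drawn with matplotlib 3.10.9 and summaries made with scipy 1.17.1, numpy 2.4.6 and pandas 2.3.3 in Python 3.11.15. The members and lists were chosen with earlier results of these data known. Named were every member identifier, in each pathway list the 3 tested identifiers with the smallest p-values and those with a peak, and the 3 genes most correlated with each tested member; 1 gene of the pathway lists is counted in them but not reported here. Alternatives were other pseudocounts, filters, scalings and variance models, a replicate block, and each library left out in turn.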

Additional observations from a re-analysis of the deposited data

How the results depend on the processing

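The log2 fold change of FGFR1 (ENSBGRG00000015839) was 1.12 to 1.85 over the 9 alternatives with all libraries (limma adjusted p = 0.103 to 0.204). It was 1.57 to 1.89 when each library was left out in turn (limma adjusted p = 0.0169 to 0.374). The ratio to summed markers is a different quantity, chosen after seeing the data. Its log2 difference was 1.07 for peritubular and stromal, 0.95 for Sertoli cell, 1.27 for endothelial and 1.34 for spermatogonia markers. FGFR1 (ENSBGRG00000015839) passed the threshold in 1 fit, without replicate 2 of the M group, at 1.89. In that fit 1 FGF receptor identifier, 13 other pathway identifiers and 2403 genes were called, and the cause was not tested. The number of genes called, 4 of 12437, was 2 with 0.01 added or a filter at 1 FPKM, 8 with no filter, 9 without the trend, and 0 to 2403 when each library was left out. With the replicate number as a block 1 gene was called and the adjusted p of FGFR1 was 0.204; samples of the same number deviated together at a correlation of -0.0909 to 0.0067, and 0 FGF receptor identifiers were called with or without the block. For the receptor identifiers and named pathway genes tested, no sign changed in the alternatives in which they were fitted; FGFR3 (ENSBGRG00000017575) had no value with the filter at 1 FPKM, and FGFR4 and FGF2 had one only with no filter. Pathway genes higher in the M group at an unadjusted p under 0.05 numbered 4 to 16 when each library was left out, and lower ones, 7 with all libraries, numbered 2 to 9. Precision is limited by 3 animals per age, and FGFR4 and FGF2 by their level.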
